A study of Homo sapiens with 48 samples.

Results

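The comparison followed here asks whether the effect of STM2457 on mRNA levels in NGP cells changed between 3 and 6 days of treatment, and which arm of the comparison moved. It used every library whose title gives NGP, 0 h of actinomycin D, and either treatment at either duration: 8 of the 48 libraries of the series, in 4 groups of 2. NGP is a human neuroblastoma cell line that the labels give as MYCN-amplified and wild type in genotype, grown in RPMI1640. The groups were DMSO for 3 days, DMSO for 6 days, 8 µM STM2457 for 3 days and 8 µM STM2457 for 6 days. STM2457 is a small-molecule inhibitor of METTL3, and DMSO is its solvent. Poly(A) RNA was sequenced and fragments were counted per protein-coding gene. The labels do not say whether the 2 libraries of a group came from separate cultures. The p-values therefore measure only the spread between libraries of the same group, which may be technical. That spread was estimated from all 24 NGP libraries fitted together, those taken after actinomycin D included. All NGP libraries come from 1 line and share its genotype. The 3-day and 6-day groups are separate sets of libraries, and the labels give neither cell density, medium changes nor harvest dates. Duration and harvest therefore cannot be told apart, in DMSO as in STM2457. In bulk RNA, fewer cells of a kind and less RNA per cell cannot be told apart either.

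METTL3 is the catalytic subunit of the nuclear complex that places N6-methyladenosine, or m6A, on mRNA, a mark read by proteins that alter splicing, translation and decay of the transcript. Several of the gene lists below hold targets of pathways that are known to respond to nutrients or to misfolded protein. The activity of these pathways was not measured. In the integrated stress response, kinases that sense a lack of amino acids or misfolded protein phosphorylate eIF2α, which lowers general translation and raises translation of the transcription factor ATF4. ATF4 then induces genes for amino acid synthesis, amino acid uptake and tRNA charging. SREBP2 induces genes of sterol synthesis when membrane sterol is low, HSF1 induces cytosolic chaperones, and the unfolded protein response induces chaperones of the endoplasmic reticulum.

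The 8 libraries held 11993189 to 16999084 fragments in genes, and 14210 to 15024 of the 19923 annotated gene names had at least 1 fragment. The neuroblastoma markers PHOX2A, HAND2, GATA3, ISL1, DBH and MYCN were present in every library, whereas TH, the first enzyme of catecholamine synthesis, had only 2 to 34 fragments. Of 14 measured markers of Schwann cells, fibroblasts, endothelium, leukocytes and epithelium, 8 stayed at or under 1 CPM (counts of a gene scaled to a fixed library total, with library sizes from TMM) in all 8 libraries. PTPRC and CD3E were at 0, and PDGFRB was the highest at 61.4 to 74.6 CPM. Their summed level was 68.0 to 71.7 CPM in DMSO and 75.2 CPM in STM2457 at 3 days, and 74.5 to 82.6 and 71.3 to 77.9 CPM at 6 days. ERCC spike-ins, synthetic RNAs added during preparation, took 0.283 and 0.292% of fragments in DMSO and 0.266 and 0.278% in STM2457 at 3 days, against 0.325 and 0.329% and 0.336 and 0.336% at 6 days. The spike-in share thus moved with duration, which decides how levels at 3 and 6 days are scaled to each other. TMM, which holds the typical gene at no change, was used throughout, and the effect of ERCC scaling is given beside the results that it changes. METTL3 (chr14:21498133-21511342) is no check of the treatment, since STM2457 acts on the protein. It had 51.9 and 49.8 CPM at 3 days and 49.2 and 57.4 at 6 days in DMSO, and 50.6 and 56.8 at 3 days and 55.8 and 55.2 at 6 days in STM2457. Most pairs of its groups overlapped, and its duration difference was -0.020 ± 0.21 (edgeR adjusted p = 1.000). MYCN (chr2:15940550-15947007) had 5679.6 and 5564 CPM at 3 days and 6544 and 8645 at 6 days in DMSO, and 4403 and 5071 at 3 days and 6857 and 7530.5 at 6 days in STM2457. It rose between durations in both arms, by 0.43 ± 0.056 in DMSO and 0.60 ± 0.056 in STM2457. With all libraries these changes did not differ beyond the spread (0.17 ± 0.079, edgeR adjusted p = 0.415). That difference depended on single libraries, from -0.019 to 0.38 when 1 was left out, and so did the lack of a call. MYCN was lower in STM2457 than in DMSO at 3 days (-0.25 ± 0.056, adjusted p = 0.00220). After 3 h of actinomycin D its duration difference had the opposite sign (-0.35 ± 0.080, adjusted p = 0.00207), and after 6 h it was -0.15 ± 0.080 (adjusted p = 0.403).

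For each gene the duration difference was computed as the STM2457 effect at 6 days minus that at 3 days, on the log2 scale. It equals the change from 3 to 6 days in STM2457 minus the change from 3 to 6 days in DMSO, so each difference can be traced to 1 arm or to both. A gene was called at an adjusted p under 0.05 (edgeR's quasi-likelihood test, Benjamini-Hochberg over 14661 genes), log2 values are given ± SE, and an arm is said to have moved where its own change passed the same test. Of the 14661 genes tested, 410 were called (2.8%), 257 higher (1.75%) and 153 lower (1.04%). STM2457 and DMSO differed in 542 genes at 3 days (3.7%) and in 1172 at 6 days (7.99%). The count at 3 days fell to 299 without replicate 1 of STM2457 at 3 days, 320 without its replicate 2, 324 without replicate 2 of DMSO at 3 days and 335 without its replicate 1. Of the 410 genes, 270 had an effect of STM2457 that passed the test at 6 days only, 55 at 3 days only, 29 at both with opposite sign, 25 at both with the same sign, and 31 at neither. The median of all tested genes was 0.02.

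With TMM the movement lay mostly in the DMSO arm. With ERCC scaling the order of the counts was reversed, with 3209 genes changed between durations in STM2457 and 2534 in DMSO. With TMM 1772 genes changed in DMSO between 3 and 6 days (12.1% of those tested, 5.37% up and 6.72% down). In STM2457 803 changed (5.48%, with 3.17% up and 2.31% down). The count in STM2457 was 525 without replicate 1 of STM2457 at 3 days. Of the 410 genes, 311 moved in DMSO only, 31 in STM2457 only, 47 in both arms in the same direction, 11 in both in opposite directions, and 10 in neither arm taken alone. The DMSO change was the larger of the 2 in 362 of the 410 genes, against 8207 of all 14661 tested genes (56.0%). Among the 257 genes with a higher duration difference, the median change was -0.59 in DMSO and -0.048 in STM2457. For the 153 lower genes it was 0.73 in DMSO and -0.12 in STM2457. The 2 DMSO groups did not overlap in 398 of the 410 genes, against 51.1% of all tested genes, and the 2 STM2457 groups in 287, against 46.4%. These genes were called from the same libraries, so the counts describe them and test nothing.

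**Figure D1:**
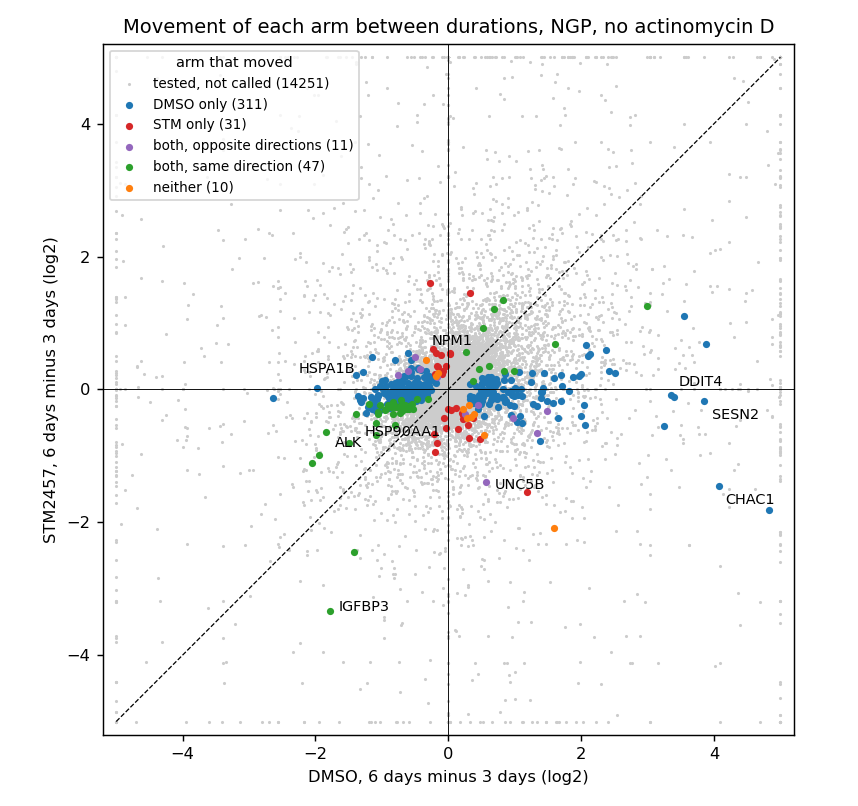
Log2 change from 3 to 6 days in DMSO (horizontal axis) and in STM2457 (vertical axis) for 14661 genes in NGP without actinomycin D; colours mark the arm or arms that passed the test among the 410 called genes, and values beyond 5 are drawn at the edge. Most called genes spread along the horizontal axis: 311 moved in DMSO only and 31 in STM2457 only.

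This assignment to an arm depended on the scaling more than the duration difference did. With ERCC scaling all 410 genes kept the sign of their duration difference and 255 were still called, and the DMSO change was the larger in 349 of them. But the median of all genes then became -0.15 in DMSO, -0.30 in STM2457 and -0.12 for the duration difference. Of the 369 genes called with that scaling, 119 moved in DMSO only, 99 in STM2457 only, 88 in both in the same direction and 57 in both in opposite directions, and 102 were higher and 267 lower. Many genes placed in DMSO only thereby gained a fall in STM2457 of about the size of the shift of all genes. With RLE size factors and with library size alone, 405 and 378 of the 410 genes were still called. The number placed in STM2457 only was small in any case, and became 17 without replicate 1 of either treatment at 3 days and 18 without replicate 2 of STM2457 at 3 days or replicate 1 of STM2457 at 6 days. The statements below on which arm moved hold for TMM.

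Most tested targets and regulators of the ATF4 stress response were called lower. Of 19 tested genes of that list, 14 were called lower and none higher, against 1.04% of all genes called lower, and the median duration difference was -2.08. In DMSO 16 of the 19 rose between 3 and 6 days (median 2.06) against 5.37% of all genes, and in STM2457 none passed the test in either direction (median -0.080). With ERCC scaling the same counts were 14 called lower, 15 risen in DMSO and 5 fallen in STM2457.

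ATF4 itself (chr22:39519695-39522685), the bZIP transcription factor of the response, had 280.2 and 284 CPM at 3 days and 483 and 517 at 6 days in DMSO, and 257 and 249 at 3 days and 236 and 228 at 6 days in STM2457. The 2 DMSO libraries at 6 days stood above the other 6, and the STM2457 libraries at 6 days were the lowest. ATF4 rose by 0.83 ± 0.085 in DMSO (edgeR adjusted p = 6.21e-13), changed by -0.12 ± 0.085 in STM2457 (adjusted p = 0.602), and its duration difference was -0.95 ± 0.12 (adjusted p = 6.05e-09). With ERCC scaling its change in STM2457 was -0.44 and passed the test. ATF5 (chr19:49928702-49933935), a related factor that is itself translated under stress, had 16.5 and 15.5 CPM at 3 days and 145 and 192 at 6 days in DMSO, and 7.36 and 3.47 at 3 days and 6.64 and 3.32 at 6 days in STM2457. It was lower in STM2457 at 3 days already (-1.56 ± 0.27, adjusted p = 3.84e-05), and its duration difference was -3.51 ± 0.38 (adjusted p = 4.76e-11). It shares 19.5% of its exon bases with NUP62 and IL4I1, and the counting names no strand option, so its counts are uncertain.

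DDIT4 (chr10:72273924-72276036), an inhibitor of the growth kinase mTORC1, had 19.9 and 21.9 CPM at 3 days and 206 and 222 at 6 days in DMSO, and 18.5 and 19.6 at 3 days and 19.4 and 16.7 at 6 days in STM2457. All 6 libraries other than DMSO at 6 days lay close together. It rose by 3.35 ± 0.25 in DMSO and changed by -0.080 ± 0.24 in STM2457 (duration difference -3.43 ± 0.34, adjusted p = 1.14e-12). SESN2 (chr1:28259518-28282491), a leucine-binding inhibitor of the same kinase, had 6.000 and 4.23 CPM at 3 days and 70.9 and 76.99 at 6 days in DMSO, and 3.99 and 4.88 at 3 days and 3.75 and 4.10 at 6 days in STM2457. Its duration difference was -4.03 ± 0.64 (adjusted p = 3.92e-06), again with a DMSO level at 6 days above the other 3 groups. CHAC1 (chr15:40952962-40956512), which degrades glutathione, had 1.64 and 3.35 CPM at 3 days and 43.9 and 40.2 at 6 days in DMSO, and 3.06 and 3.72 at 3 days and 1.53 and 0.911 at 6 days in STM2457. At -5.53 ± 0.94 (adjusted p = 1.36e-05) it had the lowest duration difference of all genes whose mean reached 10 CPM.

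TRIB3 (chr20:362835-397559), a pseudokinase that restrains ATF4, had 7.25 and 4.59 CPM at 3 days and 63.99 and 74.7 at 6 days in DMSO, and 3.31 and 4.75 at 3 days and 9.82 and 7.48 at 6 days in STM2457. It rose by 3.55 ± 0.53 in DMSO, and its duration difference of -2.45 ± 0.71 (adjusted p = 0.0370) was not called without replicate 2 of DMSO at 3 days or replicate 2 of DMSO at 6 days (highest adjusted p 0.0760). ASNS (chr7:97851677-97872542), asparagine synthetase, had 94.1 and 87.9 CPM at 3 days and 283 and 266 at 6 days in DMSO, and 66.98 and 66.2 at 3 days and 78.2 and 71.3 at 6 days in STM2457. The DMSO level at 6 days again stood apart, with 1.59 ± 0.11 in DMSO against 0.17 ± 0.11 in STM2457 (duration difference -1.42 ± 0.15, adjusted p = 2.17e-11). ATF3 (chr1:212565334-212620777), a stress-induced bZIP repressor, had 11.1 and 12.1 CPM at 3 days and 47.8 and 49.3 at 6 days in DMSO, and 11.7 and 8.09 at 3 days and 6.19 and 7.48 at 6 days in STM2457 (duration difference -2.60 ± 0.61, adjusted p = 0.00381). The other called members moved likewise: DDIT3 -2.27, VLDLR -2.08, STC2 -1.59, CEBPB -1.47, CEBPG -1.24 and XPOT -0.61. CTH, JDP2, PPP1R15A, GDF15 and FGF21 did not pass. DESeq2 gave no adjusted p for 5 of the 14 called members, and it called the other 9.

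The promoters of 18 of the 121 genes called lower and matched to a RefSeq promoter held TGATGNAA or its reverse complement TTNCATCA, the letters of the C/EBP-ATF response element that ATF4 dimers are known to bind (14.9%). The same letters were in 203 of 11545 tested genes (1.76%) and in 1 of the 205 genes called higher (0.488%). The windows, from RefSeq for GRCh38.p14, run from 250 bases before to 50 after the annotated start. The sites of 5 lowered genes are shown in 5′ to 3′ direction of the gene with these letters in capitals. ATF3 and CHAC1 stand for the regulators, ASNS for the enzymes, AARS1 for the tRNA synthetases and HERPUD1 for a membrane protein of the endoplasmic reticulum. A match is a description of letters and not a measured site.
ATF3, chr1:212565205-212565234, plus strand: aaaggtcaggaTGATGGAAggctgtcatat
ASNS, chr7:97872458-97872487, minus strand: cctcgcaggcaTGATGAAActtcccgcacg
CHAC1, chr15:40953251-40953280, plus strand: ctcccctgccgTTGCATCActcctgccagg
AARS1, chr16:70289675-70289704, minus strand: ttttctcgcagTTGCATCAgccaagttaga
HERPUD1, chr16:56931955-56931984, plus strand: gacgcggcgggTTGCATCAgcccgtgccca
The stretches shown for ASNS, CHAC1 and AARS1 overlap an exon of an annotated transcript of the same gene, and those of ATF3 and HERPUD1 overlap none.

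Most enzymes of amino acid synthesis were called lower too. Of 15 enzymes of serine, proline and one-carbon metabolism, 11 were called lower and 1 higher (median -0.80), against 1.04 and 1.75% of all genes. Of the 15, 11 rose in DMSO and 2 in STM2457, against 5.37 and 3.17% of all genes. PSAT1 (chr9:78297125-78330093), phosphoserine aminotransferase of the serine pathway, had 110.1 and 107 CPM at 3 days and 316 and 289.9 at 6 days in DMSO, and 113 and 115 at 3 days and 101 and 101 at 6 days in STM2457. Only DMSO at 6 days stood apart, with 1.48 ± 0.093 in DMSO and -0.18 ± 0.093 in STM2457 (duration difference -1.66 ± 0.13, adjusted p = 4.66e-17). GPT2, mitochondrial alanine aminotransferase, had 65.7 and 63.3 CPM at 3 days and 218 and 205 at 6 days in DMSO, and 42.5 and 50.9 at 3 days and 44.6 and 52.4 at 6 days in STM2457 (duration difference -1.66 ± 0.20, adjusted p = 6.95e-10). MTHFD2, the mitochondrial folate dehydrogenase, had 227 and 227 CPM at 3 days and 427 and 384 at 6 days in DMSO, and 198 and 218 at 3 days and 179 and 202 at 6 days in STM2457 (duration difference -0.96 ± 0.11, adjusted p = 1.19e-10), with 33.6% of its exon bases shared with other genes. SHMT2, which cleaves serine to glycine in mitochondria, rose in both arms, from 203 and 222 to 391 and 454 CPM in DMSO and from 146 and 150.5 to 170.3 and 188 CPM in STM2457. Its rise in STM2457 was 0.27 ± 0.079 and became -0.04 with ERCC scaling. PHGDH, PSPH, ALDH1L2, MTHFD1L, PYCR1, GOT1 and ASS1 were also lower, from -1.04 (ALDH1L2) to -0.54 (PHGDH). MTHFD1, the cytosolic folate enzyme, went the other way (0.36), a call lost with ERCC scaling and with library size alone.

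Of 11 amino acid transporters, 9 were called lower and none higher (median -1.42), against 1.04% of all genes called lower. In DMSO 10 rose, against 5.37% of all genes. In STM2457 none rose and 2 fell, against 3.17 and 2.31% of all genes. SLC7A11 (chr4:138164097-138242349), the cystine carrier, had 8.57 and 7.65 CPM at 3 days and 84.2 and 69.1 at 6 days in DMSO, and 6.55 and 4.50 at 3 days and 4.03 and 3.51 at 6 days in STM2457 (duration difference -3.79 ± 0.40, adjusted p = 2.34e-11). SLC7A5 (chr16:87830023-87869507), the light chain of the leucine transporter LAT1, had 159 and 169 CPM at 3 days and 444 and 475 at 6 days in DMSO, and 161 and 142 at 3 days and 129 and 113 at 6 days in STM2457. Its arms moved in opposite directions, 1.49 ± 0.093 in DMSO and -0.32 ± 0.093 in STM2457 (adjusted p = 4.65e-23 and 0.0201). SLC3A2 (chr11:62856102-62888875), the heavy chain that both of these carriers need at the membrane, had 84.6 and 74.5 CPM at 3 days and 186 and 218 at 6 days in DMSO, and 99.5 and 108 at 3 days and 57.8 and 73.5 at 6 days in STM2457. It too moved in opposite directions, 1.34 ± 0.15 and -0.66 ± 0.15, and at 3 days it was higher in STM2457 than in DMSO by 0.38 ± 0.15 (adjusted p = 0.192) while at 6 days it was lower (-1.62 ± 0.16). SLC1A5, a glutamine carrier, had 136 and 125 CPM at 3 days and 275 and 289 at 6 days in DMSO, and 127 and 112 at 3 days and 107 and 117 at 6 days in STM2457 (duration difference -1.20 ± 0.15, adjusted p = 1.88e-09). SLC6A9, SLC43A1, SLC1A4, SLC7A1 and SLC38A1 were lower by -2.13 to -0.62, all with a rise in DMSO only. SLC38A2 and SLC36A1 were not called.

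Aminoacyl-tRNA synthetases, which charge tRNAs with their amino acids, moved in part. Of 20 cytosolic synthetases, 11 were called lower (median -0.48), 14 rose in DMSO and 2 in STM2457. The shares of all genes were 1.04, 5.37 and 3.17%. CARS1 (chr11:3000922-3057613), for cysteine, had 30.7 and 34.6 CPM at 3 days and 80.9 and 84.2 at 6 days in DMSO, and 29.002 and 29.2 at 3 days and 25.4 and 23.7 at 6 days in STM2457 (duration difference -1.58 ± 0.26, adjusted p = 5.23e-06). GARS1 (chr7:30594838-30634033), for glycine, had 275 and 246 CPM at 3 days and 536 and 578 at 6 days in DMSO, and 212 and 223 at 3 days and 221 and 216 at 6 days in STM2457. The STM2457 levels of GARS1 at 3 and 6 days overlapped, and its duration difference was -1.09 ± 0.11 (adjusted p = 1.81e-12). AARS1 (chr16:70252295-70289543), for alanine, had 263 and 255 CPM at 3 days and 433 and 503 at 6 days in DMSO, and 195 and 196 at 3 days and 174 and 167 at 6 days in STM2457 (duration difference -1.05 ± 0.12, adjusted p = 1.81e-10). MARS1, for methionine, shares 12.4% of its exon bases with other genes and was at -0.96 ± 0.11. WARS1, YARS1, TARS1, NARS1, IARS1, SARS1 and EPRS1 ranged from -0.88 to -0.43. The synthetases for leucine, valine, lysine, histidine, glutamine, arginine, aspartate and phenylalanine were not called, at -0.24 (LARS1) to 0.23 (FARSA). Of the 10 called synthetases with a RefSeq promoter, 6 held TGATGNAA or its complement. With ERCC scaling the count called was 12, and 13 synthetases fell in STM2457.

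**Figure D2:**
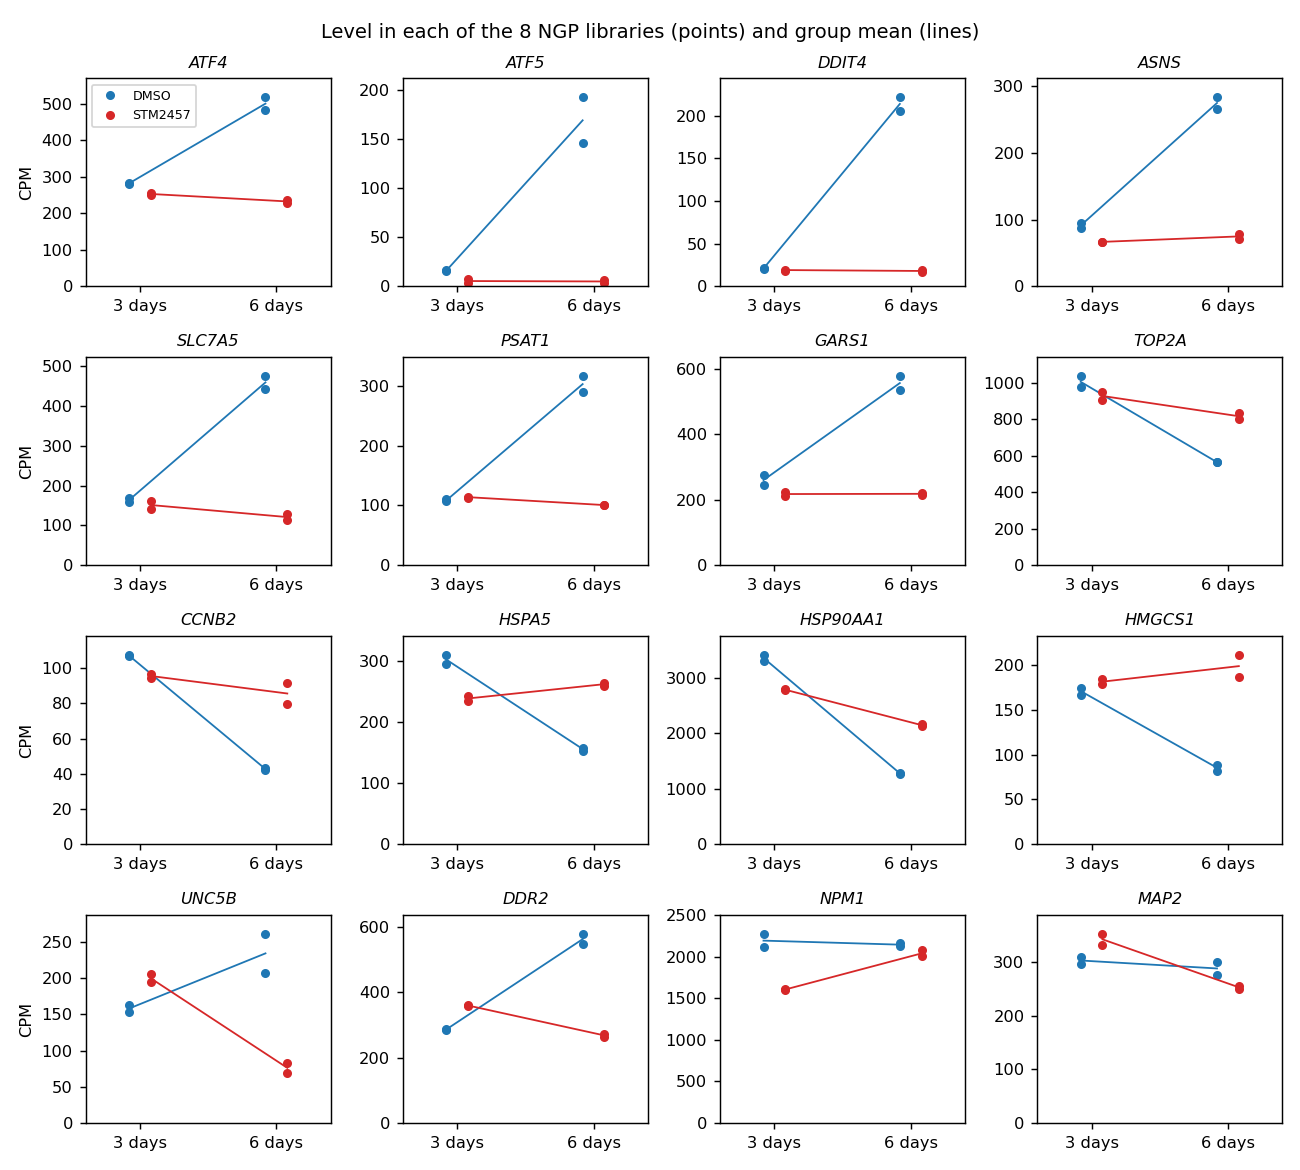
CPM in each of the 8 libraries (points) for 16 genes at 3 and 6 days, in DMSO (blue) and STM2457 (red), with lines joining group means; each panel has its own linear axis from 0. For ATF4, ATF5, DDIT4, ASNS, SLC7A5, PSAT1 and GARS1 the DMSO level at 6 days stands above the other groups, and for TOP2A, CCNB2, HSPA5, HSP90AA1 and HMGCS1 it stands below them.

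Genes of cell division had the opposite sign. Of 20 genes of G2 and mitosis, 19 were called higher and none lower, against 1.75% of all genes called higher, with a median of 0.87. Of the 20, 19 fell in DMSO between 3 and 6 days (median -0.93) against 6.72% of all genes, and 4 fell in STM2457 (median -0.14) against 2.31%. With ERCC scaling 18 were called higher, 19 fell in DMSO (median -1.10) and 15 fell in STM2457 (median -0.45), so the smaller fall in STM2457 passed the test for most of them under that scaling. NUSAP1, the remaining gene, was at 0.89 and did not pass.

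CCNB2 (chr15:59105126-59125045), a mitotic cyclin, had 108 and 107 CPM at 3 days and 43.2 and 42.2 at 6 days in DMSO, and 94.6 and 96.6 at 3 days and 79.4 and 91.9 at 6 days in STM2457. The 2 DMSO libraries at 6 days were below the rest, and the fall was -1.33 ± 0.12 in DMSO against -0.16 ± 0.12 in STM2457 (duration difference 1.17 ± 0.17, adjusted p = 4.02e-07). AURKA (chr20:56369389-56392337), the spindle-pole kinase, had 64.3 and 61.2 CPM at 3 days and 24.02 and 24.6 at 6 days in DMSO, and 53.4 and 50.7 at 3 days and 46.4 and 51.1 at 6 days in STM2457 (duration difference 1.27 ± 0.26, adjusted p = 5.57e-04). HMMR, a spindle assembly factor, had 113 and 107 CPM at 3 days and 55.97 and 46.5 at 6 days in DMSO, and 107 and 107 at 3 days and 115 and 100.002 at 6 days in STM2457 (duration difference 1.11 ± 0.15, adjusted p = 9.06e-08). These 3 genes shared the pattern of 1 group below 3 that lay closer together. TOP2A (chr17:40388525-40417896), the topoisomerase that untangles chromosomes, had 1036 and 975 CPM at 3 days and 565 and 565 at 6 days in DMSO, and 949 and 907 at 3 days and 833 and 801 at 6 days in STM2457. TOP2A fell in both arms, by more in DMSO (-0.83 ± 0.050) than in STM2457 (-0.18 ± 0.049), and TPX2, a spindle activator of AURKA, did so too (-0.90 ± 0.064 and -0.24 ± 0.064). CENPF, a kinetochore protein, had the smallest difference of the called members, 0.42 ± 0.057 (adjusted p = 6.20e-08).

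PRC1 (chr15:90966040-90995629), which bundles microtubules in the spindle midzone, had 24 and 30.2 CPM at 3 days and 10.95 and 13.5 at 6 days in DMSO, and 14.03 and 21.8 at 3 days and 26.5 and 23.8 at 6 days in STM2457 (duration difference 1.64 ± 0.35, adjusted p = 9.19e-04). Its counts are uncertain, because 57.6% of its exon bases are shared with AC068831.8. DEPDC1 (chr1:68474152-68497221), a mitotic gene outside the list, had 34.9 and 39.8 CPM at 3 days and 13.4 and 14.9 at 6 days in DMSO, and 28.9 and 28.3 at 3 days and 31.7 and 34.9 at 6 days in STM2457 (duration difference 1.62 ± 0.30, adjusted p = 7.57e-05). Tubulin TUBA1B (chr12:49127782-49131397), with many near-identical copies in the genome, had 1720.3 and 1644 CPM at 3 days and 1008 and 1088 at 6 days in DMSO, and 1456 and 1409.9 at 3 days and 1386 and 1404 at 6 days in STM2457. It fell in DMSO (-0.68 ± 0.042) and was at -0.039 ± 0.041 in STM2457 (duration difference 0.64 ± 0.059, adjusted p = 4.54e-14).

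Of 15 called mitotic genes with a RefSeq promoter, 10 held TTTGAA or its reverse complement TTCAAA (66.7%), the letters of the cell cycle homology region that the DREAM complex is known to bind, against 47 of 205 genes called higher (22.9%), 9.92% of the genes called lower and 10.2% of the tested genes. CCAAT, or ATTGG on the other strand, was in 86.7% of these mitotic promoters, in 57.6% of the genes called higher, 46.3% of those called lower and 36.5% of those tested. It was also in the called serine and one-carbon enzymes (6 of 7, 85.7%) and the called genes of the endoplasmic reticulum list (8 of 9, 88.9%). Sites before the start of 4 genes are shown because these genes carried the largest or best-measured differences, with TTTGAA or TTCAAA in capitals.
CCNB2, chr15:59105105-59105134, plus strand: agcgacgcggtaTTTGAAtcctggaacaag
PRC1, chr15:90994538-90994567, minus strand: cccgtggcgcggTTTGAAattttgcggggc
DEPDC1, chr1:68497092-68497121, minus strand: ccctctatgctaTTCAAAtcggcggcgggg
TOP2A, chr17:40418030-40418059, minus strand: ctgattggtttaTTCAAAcaaaccccggcc
In CCNB2, PRC1 and DEPDC1 the letters began 20 to 29 bases before the start and in TOP2A 151 bases before it. The stretches shown for CCNB2, PRC1 and DEPDC1 overlap an exon of an annotated transcript of the same gene, and that of TOP2A does not.

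Of 23 genes of DNA replication, 6 were called higher and none lower (median 0.22), against 1.75% of all genes called higher. Of the 23, 17 fell in DMSO (median -0.39) and 4 in STM2457 (median -0.093), against 6.72 and 2.31% of all genes. With ERCC scaling 3 were called and 19 fell in each arm. UHRF1 (chr19:4903080-4962154), which keeps DNA methylation through replication, had 376 and 382 CPM at 3 days and 192 and 215 at 6 days in DMSO, and 305 and 314 at 3 days and 276 and 304 at 6 days in STM2457 (duration difference 0.80 ± 0.11, adjusted p = 3.60e-08). RRM1, the large subunit of ribonucleotide reductase, had 129 and 127 CPM at 3 days and 77.2 and 73.3 at 6 days in DMSO, and 119 and 115 at 3 days and 127 and 97.9 at 6 days in STM2457. Its call (0.71 ± 0.15) was lost without replicate 1 of STM2457 at 6 days (highest adjusted p 0.0995). TYMS, RRM2 and the helicase subunits MCM3 and MCM4 were at 0.79, 0.38, 0.47 ± 0.089 and 0.36 ± 0.070, and MCM4 was not called with ERCC scaling.

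The largest higher duration difference among genes whose mean reached 10 CPM was that of a heat shock gene. HSPA1B (chr6:31827738-31830254), an inducible cytosolic HSP70, had 51.97 and 61.1 CPM at 3 days and 15.7 and 12.8 at 6 days in DMSO, and 45.4 and 38.9 at 3 days and 36.96 and 48.99 at 6 days in STM2457. It fell in DMSO (-1.98 ± 0.19) and was at 0.026 ± 0.18 in STM2457 (duration difference 2.01 ± 0.26, adjusted p = 7.82e-09). HSPA1A is nearly identical to it, so reads may be split between the copies or lost. HSP90AA1 (chr14:102080738-102139699), the inducible cytosolic HSP90, had 3415 and 3312 CPM at 3 days and 1291 and 1265 at 6 days in DMSO, and 2798 and 2778 at 3 days and 2173 and 2124 at 6 days in STM2457. Its 4 groups did not overlap: it changed by -1.40 ± 0.032 in DMSO and by -0.38 ± 0.031 in STM2457, and at 3 days STM2457 lay below DMSO while at 6 days it lay above. Its duration difference of 1.02 ± 0.044 had the smallest adjusted p of all tested genes (3.50e-32). HSPA8 (chr11:123057489-123063230), the constitutive HSP70, had 1087 and 1026 CPM at 3 days and 474 and 448 at 6 days in DMSO, and 1069 and 1098 at 3 days and 923 and 935 at 6 days in STM2457. The 3-day groups of HSPA8 overlapped, and it differed by 1.01 ± 0.051 at 6 days (duration difference 0.97 ± 0.071, adjusted p = 7.02e-19).

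DNAJB1, an HSP70 co-chaperone, had 58.1 and 71.7 CPM at 3 days and 27.6 and 25.6 at 6 days in DMSO, and 50.8 and 55.1 at 3 days and 47.7 and 49.5 at 6 days in STM2457 (duration difference 1.16 ± 0.28, adjusted p = 0.00458). Its call was lost without replicate 2 of DMSO at 3 days (highest adjusted p 0.0990). HSPA2, another HSP70, had 21.9 and 14.4 CPM at 3 days and 7.48 and 7.37 at 6 days in DMSO, and 17.96 and 19.97 at 3 days and 20.7 and 24.7 at 6 days in STM2457 (duration difference 1.55 ± 0.36, adjusted p = 0.00385). The call of HSPA2 was lost without replicate 1 of DMSO at 3 days and with limma-voom (highest adjusted p 0.107). The strict heat shock element, which reads GAA, TTC and GAA with 2 bases of any kind between them, or its reverse complement, was in 2 of 205 promoters of genes called higher, HSPA8 and DNAJA1 (0.976%), in 1 of 121 genes called lower (0.826%) and in 0.346% of the tested genes. The HSPA8 site, with these letters in capitals, began 55 bases before the start. The stretch shown overlaps an exon of an annotated transcript of the same gene.
HSPA8, chr11:123062171-123062199, minus strand: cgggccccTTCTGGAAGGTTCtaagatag

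Of 20 genes of the endoplasmic reticulum, 7 were called higher (HSPA5, HSP90B1, PDIA3, PDIA4, PDIA6, CALR and CANX, all chaperones or disulfide isomerases) and 3 lower (HERPUD1 and EDEM1 of the degradation pathway, and the transcription factor XBP1). Over all genes 1.75% were called higher and 1.04% lower. HSPA5 (chr9:125234853-125241343), the luminal HSP70 known as BiP, had 309 and 294 CPM at 3 days and 158 and 153 at 6 days in DMSO, and 243 and 233 at 3 days and 259 and 264 at 6 days in STM2457. In DMSO it fell by 0.96 on the log2 scale and in STM2457 it was at 0.14 ± 0.083 (duration difference 1.09 ± 0.12, adjusted p = 3.42e-11). HSP90B1 (chr12:103930107-103953645), the luminal HSP90, had 696 and 652 CPM at 3 days and 416 and 379.996 at 6 days in DMSO, and 495 and 467 at 3 days and 534 and 586 at 6 days in STM2457. Its arms moved in opposite directions, -0.76 ± 0.058 and 0.22 ± 0.058, but with ERCC scaling its change in STM2457 was -0.10 and did not pass. It shares 11.6% of its exon bases with another gene.

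CALR, calreticulin, had 562 and 563 CPM at 3 days and 257 and 296 at 6 days in DMSO, and 499.5 and 464 at 3 days and 422 and 398 at 6 days in STM2457 (duration difference 0.79 ± 0.091, adjusted p = 2.41e-10). At 3 days both STM2457 libraries of these 3 chaperones lay below both DMSO libraries, and at 6 days they lay above. HERPUD1 (chr16:56932142-56944864), which is also a known ATF4 target, had 56.3 and 65.2 CPM at 3 days and 202 and 190.03 at 6 days in DMSO, and 42.3 and 47.6 at 3 days and 39.9 and 39.8 at 6 days in STM2457. It rose by 1.69 ± 0.17 in DMSO (duration difference -1.86 ± 0.25, adjusted p = 2.09e-08), and EDEM1 and XBP1 were at -1.20 and -0.99. The other 10 genes of the list, among them DNAJB9, HYOU1 and MANF, were not called.

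Of 20 sterol synthesis genes, 9 were called higher and none lower (median 0.60), against 1.75% of all genes called higher. In DMSO 9 fell and 1 rose (median -0.46), against 6.72 and 5.37%, and in STM2457 4 rose (median 0.13), against 3.17%. With ERCC scaling 6 were called higher, 10 fell in DMSO, and none rose and 3 fell in STM2457. HMGCS1 (chr5:43287470-43313512), which makes HMG-CoA, had 167 and 175 CPM at 3 days and 88.6 and 81.9 at 6 days in DMSO, and 184 and 179 at 3 days and 211 and 186 at 6 days in STM2457 (duration difference 1.14 ± 0.12, adjusted p = 3.59e-11). Its DMSO libraries at 6 days were below all others. FDPS, which makes farnesyl pyrophosphate, had 258 and 277 CPM at 3 days and 177 and 175 at 6 days in DMSO, and 249 and 236 at 3 days and 297 and 291 at 6 days in STM2457. It moved in opposite directions, -0.60 ± 0.074 and 0.28 ± 0.073, the second of which became -0.04 with ERCC scaling. ACAT2, the cytosolic thiolase, was at 0.96 ± 0.19 (adjusted p = 4.27e-04) and shares 22.2% of its exon bases with other genes. SQLE and FDFT1 were at 0.83 and 0.44. INSIG1, which retains the SREBP complex, was the only one of the 9 whose STM2457 level alone moved (0.61, against -0.22 in DMSO).

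Fewer genes moved mainly in STM2457. NPM1 (chr5:171387116-171411137), the nucleolar protein nucleophosmin, had 2274 and 2112 CPM at 3 days and 2128 and 2162 at 6 days in DMSO, and 1607 and 1604 at 3 days and 2078 and 2002 at 6 days in STM2457. Its DMSO groups overlapped, and it rose by 0.35 ± 0.037 in STM2457 from a level below DMSO at 3 days (-0.45 ± 0.037, adjusted p = 1.37e-15) to one not distinguishable from it at 6 days (-0.072 ± 0.037, adjusted p = 0.304). ENO1, the glycolytic enolase, had 2113 and 2239.7 CPM at 3 days and 2063 and 2026 at 6 days in DMSO, and 1671 and 1730.3 at 3 days and 1995 and 1992 at 6 days in STM2457 (duration difference 0.32 ± 0.049, adjusted p = 1.15e-06).

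The arm of NPM1 and ENO1 depended on the scaling: with ERCC counts NPM1 changed by -0.21 in DMSO and 0.03 in STM2457, and ENO1 by -0.26 and -0.09, with only the DMSO change passing the test. ENO1 was then no longer called. Both genes have processed pseudogenes, so their counts are uncertain. MAP2, a dendritic microtubule protein, had 295 and 309.8 CPM at 3 days and 299 and 276 at 6 days in DMSO, and 332 and 352 at 3 days and 249.7 and 256 at 6 days in STM2457. It fell in STM2457 (-0.44 ± 0.072), and its call (-0.36 ± 0.10, adjusted p = 0.0256) was lost without replicate 1 of DMSO at 3 days, replicate 2 of STM2457 at 3 days, or replicate 1 of either treatment at 6 days (highest adjusted p 0.174). No called member of the ATF4, amino acid, synthetase, replication, mitotic or chaperone lists moved in STM2457 alone.

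A few genes crossed. UNC5B (chr10:71212570-71302864), a netrin receptor of axon guidance, had 163 and 153 CPM at 3 days and 207 and 261 at 6 days in DMSO, and 194 and 205 at 3 days and 69.4 and 82.7 at 6 days in STM2457. It was higher in STM2457 than in DMSO at 3 days (0.34 ± 0.10, adjusted p = 0.0305) and lower at 6 days (-1.62 ± 0.10, adjusted p = 4.27e-23), and the STM2457 arm moved more (-1.39 ± 0.10) than the DMSO arm (0.57 ± 0.10). DDR2 (chr1:162631373-162787405), a receptor kinase for fibrillar collagen, had 287 and 285 CPM at 3 days and 578 and 546 at 6 days in DMSO, and 359.7 and 359 at 3 days and 272 and 263 at 6 days in STM2457. Its 4 groups did not overlap: it rose by 0.98 ± 0.067 in DMSO and changed by -0.42 ± 0.067 in STM2457 (duration difference -1.40 ± 0.10, adjusted p = 4.08e-20). All 3 measured aspects of UNC5B and DDR2, the 2 arms and the duration difference, passed the test with ERCC scaling too. Other guidance genes were PLXNA1, a semaphorin receptor, at -0.77 ± 0.12 with a rise in DMSO only, and SLIT3, a ligand of ROBO receptors, which fell in both arms (-1.95 ± 0.076 in DMSO, -0.99 ± 0.073 in STM2457). The remaining 25 of 28 tested guidance genes were not called, and over all genes 2.8% were called.

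Receptors and growth factor genes were mostly single cases. ALK (chr2:29192774-29921586), the receptor kinase altered in a share of neuroblastomas, had 125 and 137 CPM at 3 days and 33.6 and 39.4 at 6 days in DMSO, and 169.96 and 172 at 3 days and 106 and 112 at 6 days in STM2457. It fell in both arms, by more in DMSO (-1.85 ± 0.12) than in STM2457 (-0.65 ± 0.11), so that it was higher in STM2457 than in DMSO by 1.58 ± 0.12 at 6 days (duration difference 1.20 ± 0.16, adjusted p = 2.14e-08). It was the only called gene among 10 neurotrophic receptors, against 1.75% of all genes called higher. IGFBP3 (chr7:45912245-45921874), a binding protein of insulin-like growth factors, had 15.7 and 23.1 CPM at 3 days and 6.62 and 4.64 at 6 days in DMSO, and 69.3 and 76.3 at 3 days and 7.44 and 7.03 at 6 days in STM2457. It fell in both arms, more in STM2457 (-3.33 ± 0.32) than in DMSO (-1.78 ± 0.31), and its call (-1.55 ± 0.43) was lost without replicate 1 of DMSO at 3 days or at 6 days, and with DESeq2 and limma-voom (highest adjusted p 0.254).

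IRS2, an adaptor of insulin and IGF receptors, rose in DMSO (0.86 ± 0.19) with a duration difference of -1.04 ± 0.27 that was lost without replicate 2 of DMSO at 3 or at 6 days (highest adjusted p 0.165). IGFBP5 and IGFBPL1 were at 0.40 ± 0.10 and 0.35 ± 0.090. Both calls were lost with ERCC scaling and without replicate 2 of STM2457 at 3 days or replicate 1 of STM2457 at 6 days. IGFBP5 also lost its call without replicate 1 of DMSO at 6 days (0.24), and IGFBPL1 without replicate 1 of DMSO at 3 days or replicate 2 of DMSO at 6 days. Among 24 matrix genes COL6A1 was at -0.64 ± 0.14 and COL5A1 at -0.93 ± 0.27, both with a rise in DMSO. They were the only 2 called, against 1.04% of all genes called lower. The call of COL5A1 was lost with limma-voom and without replicate 1 of DMSO at 3 days, replicate 1 of STM2457 at 3 or at 6 days, or replicate 2 of DMSO at 6 days (highest adjusted p 0.279).

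Outside these lists, INHBE (chr12:57452323-57459280), an activin subunit induced by stress, had 6.23 and 8.31 CPM at 3 days and 101 and 115 at 6 days in DMSO, and 4.93 and 2.12 at 3 days and 6.64 and 4.68 at 6 days in STM2457 (duration difference -3.20 ± 0.58, adjusted p = 5.73e-05). It had its highest level in DMSO at 6 days. JUN (chr1:58780791-58784047), an immediate early factor, had 42 and 45.9 CPM at 3 days and 81.2 and 99.5 at 6 days in DMSO, and 48.3 and 48.4 at 3 days and 31.6 and 37.3 at 6 days in STM2457 (duration difference -1.53 ± 0.35, adjusted p = 0.00267). PHLDB2 had 73.9 and 69.3 CPM at 3 days and 44.96 and 37.4 at 6 days in DMSO, and 58.4 and 58.9 at 3 days and 81.9 and 78.1 at 6 days in STM2457 (duration difference 1.25 ± 0.21, adjusted p = 1.06e-05). ROMO1, a mitochondrial membrane protein with 11.97% of its exon bases shared, had 31.1 and 36.2 CPM at 3 days and 21.5 and 22.6 at 6 days in DMSO, and 25.1 and 25.6 at 3 days and 37.4 and 36.5 at 6 days in STM2457 (duration difference 1.15 ± 0.25, adjusted p = 0.00154). In PHLDB2 and ROMO1 the DMSO libraries at 6 days were the lowest.

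For 10 genes the difference was called although neither arm passed alone. ARRDC3, an arrestin-domain adaptor, had 49.6 and 54.2 CPM at 3 days and 78.4 and 72.4 at 6 days in DMSO, and 66.1 and 66.8 at 3 days and 43.7 and 39.1 at 6 days in STM2457, with 0.54 ± 0.22 in DMSO and -0.68 ± 0.22 in STM2457 (duration difference -1.22 ± 0.32, adjusted p = 0.0116). GPATCH8 and SOCS7 were at -0.51 ± 0.13 and -0.75 ± 0.20. Without replicate 1 of DMSO at 3 days neither was called. GPATCH8 was also lost without replicate 1 of DMSO or replicate 2 of STM2457 at 6 days, and SOCS7 without replicate 2 of STM2457 at 3 days. The histone gene H2AC19 (chr1:149851061-149851624), which has a near-identical copy, had 4.68 and 2.62 CPM at 3 days and 12.6 and 9.47 at 6 days in DMSO, and 39.1 and 3.60 at 3 days and 4.14 and 5.86 at 6 days in STM2457. Its 2 STM2457 libraries at 3 days were far apart, and its duration difference of -3.69 ± 1.07 became -1.13 without replicate 1 of that group. That call was also lost without replicate 2 of DMSO at 3 days, replicate 1 of DMSO at 6 days or replicate 1 of STM2457 at 6 days, so it rests on single libraries.

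In several lists edgeR called no gene for the duration difference. All 77 ribosomal protein genes tested were without a call (9 at an unadjusted p under 0.05, 2 called by DESeq2 and 1 by limma-voom). Over all 14661 genes 1493 had an unadjusted p under 0.05 in edgeR. Between durations 69 of the 77 rose in DMSO (median 0.37) and 70 in STM2457 (median 0.36), against 5.37 and 3.17% of all genes. With ERCC scaling these counts were 40 and 6, and 5 genes were called lower. STM2457 lowered 45 of them at 3 days and 52 at 6 days, against 2.45 and 3.55% of all genes. Among 18 genes of the m6A machinery edgeR called none (5 at an unadjusted p under 0.05, 3 called by DESeq2 and 0 by limma-voom). None of 11 catecholamine genes was called by edgeR (3 at an unadjusted p under 0.05, 1 by DESeq2, 0 by limma-voom). For 20 p53 targets and 19 interferon response genes all 3 tools called 0, as did the unadjusted threshold in edgeR. The interferon genes had a median change of 0.53 in DMSO and 0.13 in STM2457, with duration differences from -4.55 to 1.93. None of them passed the test in either arm, so the lack of calls does not show that they stayed level.

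Nucleolar genes had 4 higher calls of 24, against 1.75% of all genes. NCL, nucleolin, was at 0.36 ± 0.053 with a fall in DMSO. NOLC1 and NOP14 were at 0.36 ± 0.083 and 0.53 ± 0.15, and both lost their call with ERCC scaling and without replicate 2 of either treatment at 3 days. NOP14 was called in the full set and without replicate 2 of STM2457 at 6 days, and lost without any other of the 8 libraries (highest adjusted p 0.233). Of 19 glycolysis and hypoxia genes 3 were called higher, against the same 1.75%. LDHA, lactate dehydrogenase, had 419.8 and 438 CPM at 3 days and 264 and 267 at 6 days in DMSO, and 334 and 339 at 3 days and 348 and 337 at 6 days in STM2457 (duration difference 0.72 ± 0.094, adjusted p = 1.93e-08). PGK1 (0.41 ± 0.12) was lost under 11 of its 17 alternatives, 6 of which left out 1 library: replicate 2 of either treatment at 3 days, and each library at 6 days.

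Of 13 adrenergic factors 1 was called higher and 1 lower, against 1.75 and 1.04% of all genes. The higher was HAND2 at 0.34 ± 0.077, whose call was lost with ERCC scaling. Of the neuronal genes NEFH, a neurofilament subunit, fell in both arms (-0.84 ± 0.061 in DMSO, -0.37 ± 0.060 in STM2457). TWIST1, of the mesenchymal list, was at 0.43 ± 0.12 and lost its call with library size, ERCC scaling and without any of 6 libraries, all but replicate 1 of DMSO at 3 and at 6 days. Of 13 mitochondrially encoded mRNAs, MT-CYB (-0.24 ± 0.051) and MT-ND4 (-0.26 ± 0.061) were called lower, against 1.04% of all genes. ERCC scaling called 9 of the 13 lower and turned the change of MT-CYB in STM2457 from 0.13 to -0.19. The number of mitochondrial calls also varied with single libraries: it was 5 without replicate 2 of DMSO at 3 days or of STM2457 at 6 days, 6 without replicate 1 of STM2457 at 3 days, and 8 without replicate 2 of DMSO at 6 days. The call of MT-ND4 was lost with DESeq2 and with the 8 libraries alone and robust dispersion (highest adjusted p 0.522), and it was at -0.12 without replicate 1 of DMSO at 6 days.

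**Figure D3:**
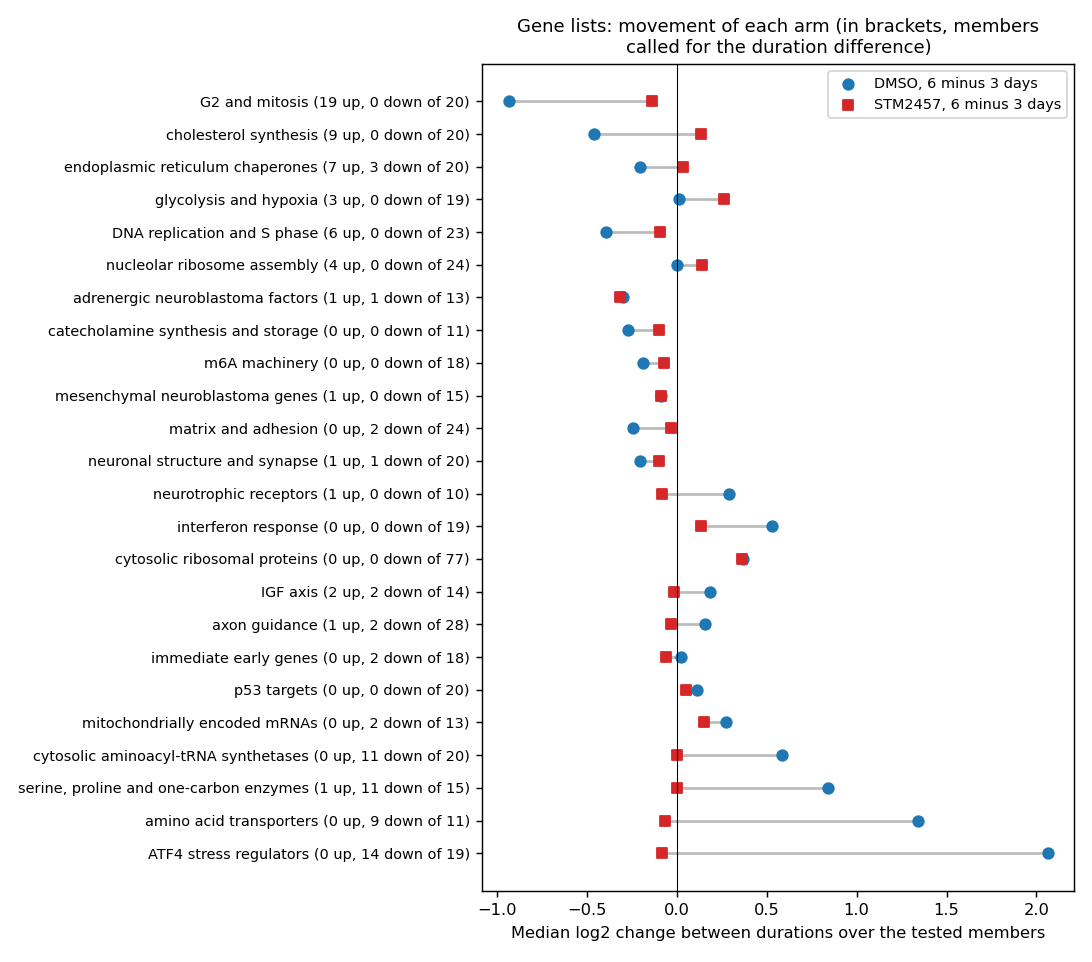
Median log2 change from 3 to 6 days over the tested members of 24 gene lists, in DMSO (blue circles) and in STM2457 (red squares), ordered by the median duration difference; brackets give the members called. The circles spread from -0.93 for G2 and mitosis to 2.06 for ATF4 stress regulators, whereas the squares stay between -0.31 and 0.36.

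The NGP libraries taken after actinomycin D, which blocks transcription, are separate libraries of the same treatments and durations. They were fitted together with the 0 h libraries and share 1 estimate of the spread with them. A level there also holds any difference in decay, and whether they share cultures with the 0 h libraries is not given. After 3 h at 10 µg/ml, 453 of 14661 genes were called for the duration difference (3.09%), 2.09% higher and 0.996% lower. Of the 410 genes called at 0 h, 250 were called with the same sign and 1 with the opposite sign, and 395 had the same sign. The DMSO change passed the test in 351 and the STM2457 change in 150 (16.6 and 10% of all tested genes), and the DMSO change was the larger in 349. The median duration difference of the 257 higher genes was 0.44 and of the 153 lower genes -0.68. Among the mitotic genes 17 of 20 were called higher, among the transporters 9 of 11 lower and among the synthetases 12 of 20 lower. Of the ATF4 list 10 of 19 were called lower and 1 higher.

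That 1 gene was ATF4 itself, the only gene of the 410 called with opposite sign. After 3 h its duration difference was 1.08 ± 0.12 (edgeR adjusted p = 1.37e-10), with a change between durations of -0.40 ± 0.086 in DMSO and 0.68 ± 0.086 in STM2457. Known targets of ATF4 kept their sign: SESN2 -4.22 ± 0.79, SLC7A11 -3.87 ± 0.40, ASNS -1.62 ± 0.15 and PSAT1 -1.68 ± 0.13. UNC5B and DDR2 were at -2.01 ± 0.14 and -1.31 ± 0.095, and HSP90AA1 and HSPA5 at 0.88 ± 0.044 and 1.00 ± 0.12. ENO1 and H2AC19 were not called at 3 h (0.13 ± 0.049 and -1.05 ± 1.61).

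After 6 h, 359 genes were called (2.45%), 1.61% higher and 0.839% lower. Of the 410, 84 were called with the same sign, 74 higher and 10 lower, and 12 with the opposite sign. The lower genes had a median of -0.02, with 79 of 153 keeping their sign, and the higher genes 0.25, with 211 of 257. Mitotic genes were still called higher in 12 of 20, whereas of 19 ATF4 regulators 2 were called lower and 2 higher, and of 20 synthetases none. ASNS was at -0.036 ± 0.15 and PSAT1 at -0.065 ± 0.13, and neither passed (adjusted p = 0.978 and 0.899). With ERCC scaling 735 and 751 genes were called at 3 and 6 h, and 86.9 and 88.1% of these were higher against 67.8 and 65.7% with TMM. With library size alone the share of higher calls was 54.5 and 45.9%, and limma-voom gave 78.2% at 6 h.

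**Figure D4:**
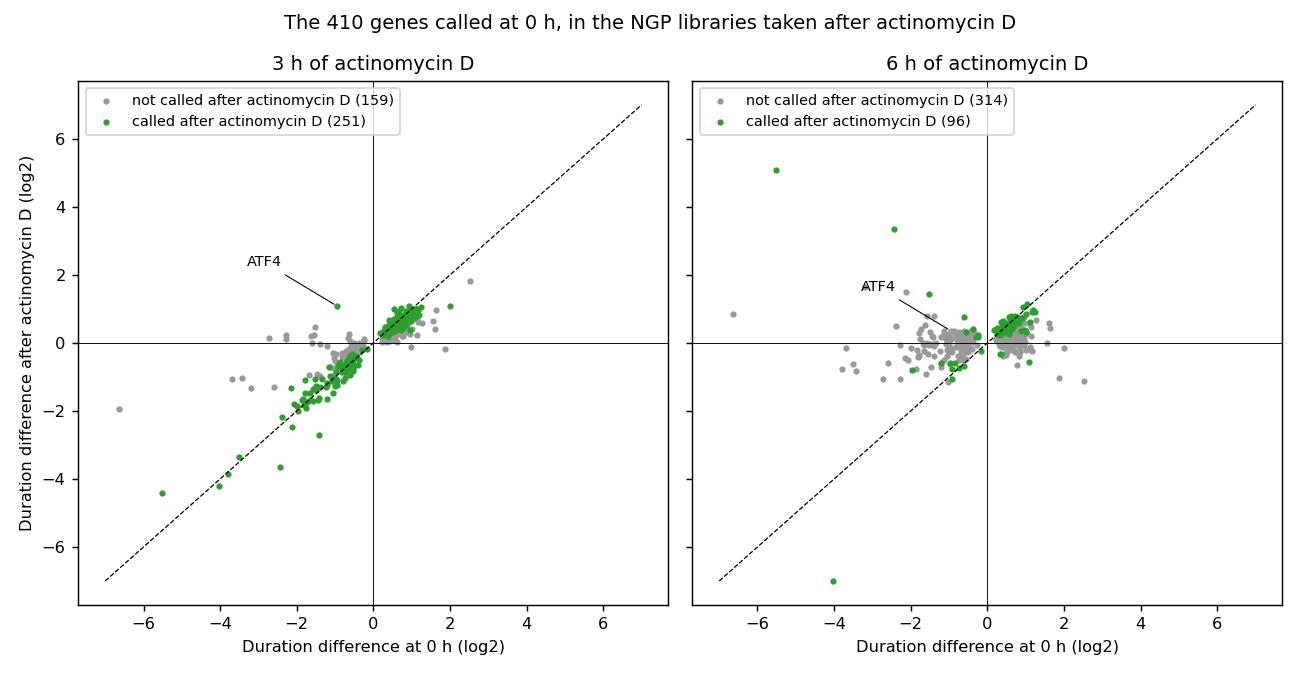
Duration difference after 3 h (left) or 6 h (right) of actinomycin D against that at 0 h, on the log2 scale, for the 410 genes called at 0 h; green points were also called after actinomycin D, the dashed line marks equality and values beyond 7 are drawn at the edge. At 3 h most points follow the line, with ATF4 above it, and at 6 h the lower genes gather near 0.

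In Kelly, another MYCN-amplified neuroblastoma line with the same groups, the duration difference was called in 106 of 17343 genes of a joint fit (0.611%), and 87 genes differed between the lines (0.502%). That count was 143 without the filter on low counts, 137 with DESeq2, and 1122 with ERCC scaling, of which 97.5% were higher in NGP against 26.4% with TMM. Of the named genes, all 9 that were higher in NGP and 14 of the 20 that were lower kept their call with ERCC scaling. Of the 410 NGP genes, 42 were called in Kelly with the same sign and 1 with the opposite sign. The higher genes had the same sign in Kelly in 218 of 257, with a median of 0.25 against 0.56 in NGP in the joint fit. The lower genes had it in 81 of 153, with a median of -0.03 against -0.85. A difference between the lines was called for 69 of the 410, 52 of the lower and 17 of the higher genes. The 410 genes were chosen by their NGP duration difference, from libraries that also enter this comparison. Smaller values in Kelly and calls between the lines therefore follow in part from that choice.

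Several amino acid genes differed between the lines. SLC7A11 was at -3.80 ± 0.40 in NGP and 0.19 ± 0.36 in Kelly in the joint fit (NGP minus Kelly -3.99 ± 0.53, adjusted p = 5.96e-07). SESN2 was at -4.04 ± 0.66 and -0.23 ± 0.61 (difference -3.81 ± 0.90, adjusted p = 0.0189). A difference between the lines was called for 6 of 11 transporters, 7 of 20 synthetases, 5 of 15 serine and one-carbon enzymes and 6 of 19 ATF4 regulators, and the medians of these lists in Kelly lay between -0.14 and 0.05. UNC5B was at -0.052 ± 0.14 in Kelly (difference -1.92 ± 0.20, adjusted p = 4.21e-10). Mitotic genes had a median of 0.37 in Kelly, and 1 of the 20 differed between the lines. DNA replication genes had a median of 0.49 in Kelly and none differed. HSP90AA1 was at 0.50 ± 0.053 in Kelly and differed from NGP by 0.51 ± 0.075 (adjusted p = 4.49e-06). Of the 20 genes of the endoplasmic reticulum list 5 differed, not all in the same direction. HSPA5 was at 0.13 ± 0.11 in Kelly (difference 0.95 ± 0.15, edgeR adjusted p = 3.63e-05), whereas the difference of HERPUD1 was -2.13.

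**Figure D5:**
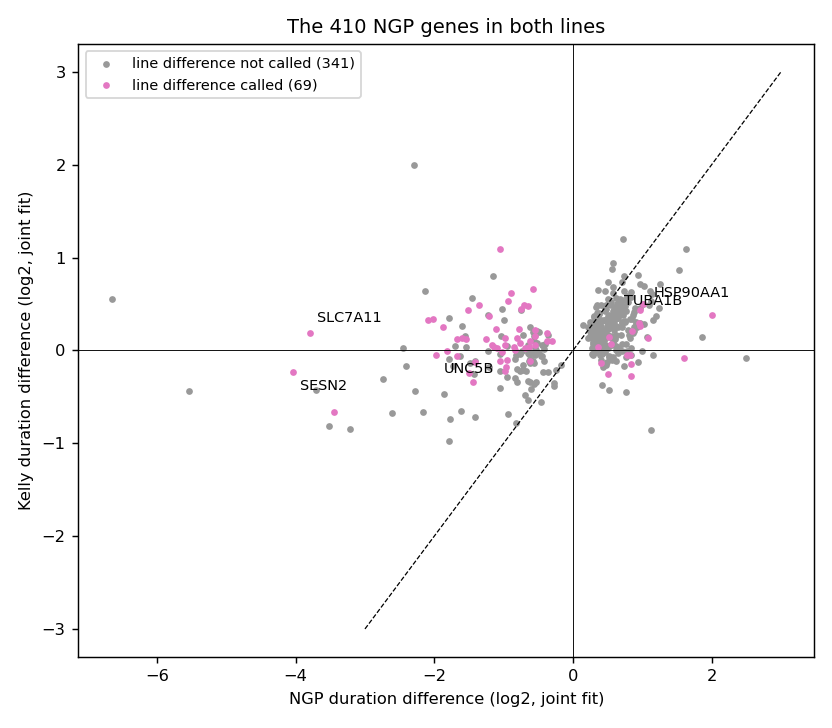
Duration difference in Kelly (vertical axis) against NGP (horizontal axis), both log2 from a joint fit of 48 libraries, for the 410 genes called in NGP; pink points are the 69 genes whose difference between lines was called, and the dashed line marks equality. The lower NGP genes scatter around 0 in Kelly, with a median of -0.03, and the higher genes lie mostly above 0, with a median of 0.25.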

How the data were processed

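What was deposited are raw counts of fragments for each gene name. The authors made them with featureCounts 1.5.3 from paired-end alignments, over exons, with the protein-coding genes of GENCODE release 33 and 92 ERCC sequences, per the file headers. No strand or multi-mapping option appears there. Tools were HISAT2 2.1.0, Subread 1.5.3, Trimmomatic 0.36 and FastQC 0.11.5 with build GRCh38, per the submitters' processing notes. RNA was taken up in TRIzol, selected on poly(A) beads and made into libraries with a SMART cDNA kit, per the labels' protocols. Groups were taken from the sample titles. Gene symbols and positions are those of the headers, and 18 gene names lie on more than 1 chromosome.

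The test was the quasi-likelihood test of edgeR 4.0.16 (R 4.3.3, trended dispersion, TMM, filterByExpr by group with minimum count 10 and total 15). The 24 NGP libraries were fitted as 12 groups of 2 that share 1 estimate of the spread, leaving 14661 genes, and all 48 libraries as 24 groups (17343 genes) for NGP against Kelly. Benjamini-Hochberg adjustment ran over all tested genes, with a threshold of 0.05. An SE is the size of the log2 change over the square root of F. CPM used TMM-scaled library sizes. Depth of 11993189 to 16999084 fragments limits genes of a few CPM most. The fitting was tested on simulated data.

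The members and gene lists were chosen with earlier results of these data known. Named genes were METTL3 and MYCN, the 10 highest and 10 lowest called genes whose mean reached 10 CPM, the 3 of smallest adjusted p per arm class and up to 4 called members of each of 25 lists. EDEM1, XBP1 and other list members, DNAJA1 and HSPA1A are named outside this rule, and a few genes that it covers are not reported here. Of the 14661 tested genes 11545 matched a RefSeq promoter (GRCh38.p14). Alternatives were RLE size factors, library size, ERCC scaling, no filter, DESeq2 1.42.0, limma-voom (limma 3.58.1), the 8 libraries alone with and without robust dispersion, a replicate block, and leaving out each library.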

Additional observations from a re-analysis of the deposited data

Results flagged for a closer look

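The effect of STM2457 in NGP differed between 3 and 6 days for 410 genes, by the test of that difference, and the duration difference itself differed between NGP and Kelly for 87 genes. The named genes among the latter are given as NGP minus Kelly on the log2 scale, from the joint edgeR fit with adjusted p under 0.05. Amino acid transporters were lower in NGP: SLC7A11 at -3.99, SLC3A2 at -2.36, SLC7A5 at -1.81 and SLC1A5 at -1.58. So were the stress response genes SESN2 at -3.81, DDIT4 at -2.78, HERPUD1 at -2.13, ASNS at -1.10 and ATF4 at -0.86. The enzymes GPT2, PSAT1 and MTHFD2 were at -1.80, -1.61 and -1.10. The tRNA synthetases CARS1, GARS1, AARS1 and MARS1 were at -1.73, -1.33, -0.94 and -0.79. Receptor and neuronal genes were UNC5B at -1.92, DDR2 at -1.28, PLXNA1 at -1.01, MAP2 at -0.56 and, in the other direction, SLIT3 at 0.65. Chaperones were higher in NGP: HSPA1B at 1.62, HSPA8 at 0.52, HSP90AA1 at 0.51, HSPA5 at 0.95, HSP90B1 at 0.70 and CALR at 0.83. The mitotic gene DEPDC1 was at 1.69 and the nucleolar NPM1 at 0.33. Both lines have 2 libraries per group. Over all genes the median of NGP minus Kelly became 0.52 with ERCC scaling. All 9 higher values and 14 of the 20 lower ones named here kept their call under it, and AARS1, ASNS, ATF4, CARS1, MAP2 and MARS1 lost it.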

How the results depend on the processing

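The duration difference was called for 385 to 418 genes with RLE size factors, library size or no filter, 369 with ERCC scaling, 390 with limma-voom, 499 from the 8 libraries alone (264 higher and 235 lower, 52.9% higher against 62.7%) and 553 with robust dispersion. DESeq2 gave 660 for it, 900 for STM2457 against DMSO at 3 days, 615 for the duration difference after 6 h of actinomycin D, 137 for NGP minus Kelly and 64 for genes moved in STM2457 only. DESeq2 gave no adjusted p for 23 of the 410 genes and called 377 of them. ERCC scaling gave 3209 changes in STM2457 between durations (4.7% higher against 57.9%), 2534 in DMSO (17.4% against 44.4%), 735 and 751 duration differences after 3 and 6 h of actinomycin D, 1122 for NGP minus Kelly, 119 genes moved in DMSO only and 99 in STM2457 only. It also moved the share of higher calls to 27.6% for the duration difference, 75.2% for STM2457 against DMSO at 3 days (33.8% with TMM) and 44.3% at 6 days (55.6%). Without a filter NGP minus Kelly gave 143. Of the 77 called named genes, 56 kept their call under all 17 alternatives that gave an adjusted p, 21 lost it under at least 1 and none reversed. DESeq2 gave no adjusted p for 7 of the 77.

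Leaving out 1 library gave 325 to 397 duration differences, 299 to 620 effects at 3 days, 814 to 1206 at 6 days, 1242 to 1794 changes in DMSO and 525 to 873 in STM2457. It gave 343 to 445 and 318 to 470 duration differences after 3 and 6 h of actinomycin D, 82 to 103 for NGP minus Kelly, 238 to 279 genes moved in DMSO only and 17 to 29 in STM2457 only. METTL3 and MYCN, which were not called with all libraries, changed sign within the ranges -0.13 to 0.094 and -0.019 to 0.38. For MYCN the lack of a call itself depended on single libraries. The cause of these changes was not tested.

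With the replicate number as a block the counts were 428 for the duration difference, 588 and 1246 for the effects at 3 and 6 days, 1813 and 848 for the changes in DMSO and STM2457, 496 and 420 after 3 and 6 h of actinomycin D, 88 for NGP minus Kelly, and 314 and 37 for genes moved in DMSO or STM2457 only. At 0 h same-numbered libraries did not deviate together (r from -0.00025 to 0.027 over 6 pairs of groups and 9375 genes). This does not show whether libraries of the same number share a culture or a batch, which the labels do not give. Depth limits genes of a few CPM such as CHAC1 in STM2457, and groups of 2 limit every SE.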

Other observations

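Some called genes had an effect of STM2457 that passed the test at 3 days only. They were chosen after their values were seen, and their arms are given for TMM only. MAP1B, a microtubule protein of growing axons, had 2332 and 2391 CPM at 3 days and 2382 and 2339 at 6 days in DMSO, and 2909 and 2833 at 3 days and 2358 and 2342 at 6 days in STM2457. The 2 STM2457 libraries at 3 days stood above the other 6 (duration difference -0.29 ± 0.047, adjusted p = 7.84e-06 from edgeR). LMO4, a transcriptional adaptor, was likewise high in STM2457 at 3 days, at 103 and 101 CPM against 45.9 to 63.0 CPM in the other 6 libraries. KCNH7, a potassium channel, was low there, at 12.8 and 13.5 CPM against 24.6 to 41.8 CPM in the other 6.

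Of 3 genes chosen in the same way, ID2, an inhibitor of bHLH transcription factors, fell in both arms. It went from 74.8 and 76.98 to 29.8 and 27.1 CPM in DMSO and from 121 and 119.6 to 21.8 and 22.1 CPM in STM2457. AKNA, an AT-hook protein, rose in both arms, from 42.4 and 33.8 to 288 and 314 CPM in DMSO and from 18.9 and 23.4 to 49.6 and 51.99 CPM in STM2457. BCAT1, which transaminates leucine, isoleucine and valine, rose by 0.25 in DMSO and fell by 0.36 in STM2457 on the log2 scale (duration difference -0.61 ± 0.076, edgeR adjusted p = 2.80e-09).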
